A study of Mus musculus with 6 samples.

Results

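Gm2682, Malat1, Neat1, Gas5, Snhg1, Snhg3, Snhg8 and Snhg12 are 8 long noncoding RNA genes of the mouse, taken by symbol from a count table of 55335 genes, of which 13133 are long noncoding by the GENCODE M21 annotation. Gm2682 was selected on its adjusted p in the comparison of groups described here, in which it was the long noncoding gene called, and the other 7 were chosen by name as well known long noncoding RNAs with their values in that comparison in view. The values and adjusted p-values of these genes below are therefore a description, not independent evidence.

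The libraries hold bulk RNA from CD4 T cells of the colon lamina propria, the connective tissue under the gut epithelium. Naive splenic CD4 T cells of TcfGFP reporter mice, in which GFP reports the locus of the transcription factor Tcf7, had been transferred into Rag1 KO mice, hosts without T and B cells of their own, to induce colitis. GFPPos libraries (TCF7+, called stem-like T cells by the labels) and GFPNeg libraries (TCF7-, called effector T cells) came from the same kind of donor cell, host and tissue and are labelled as differing in the GFP gate, with 3 libraries each. The labels give no age, no time after transfer and no animal for any library, so p-values measure the spread between these samples only, part of which may be technical.

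Long noncoding RNAs are transcribed and often spliced like messenger RNAs but carry no long reading frame. Malat1 and Neat1 stay in the nucleus: Malat1 gathers in nuclear speckles, where splicing factors are stored, and Neat1 is the scaffold of paraspeckles. Gas5 and the Snhg genes are hosts of small nucleolar RNAs (snoRNAs), which are cut out of their introns and guide modification of ribosomal RNA; the spliced host RNA that remains often starts with a run of pyrimidines, as messenger RNAs of ribosomal proteins do, and is cleared in the cytoplasm by nonsense-mediated decay.

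The transcript of Gm2682 is shown first because this is the member with the largest difference between the groups. Gm2682 (ENSMUSG00000115681.1) is annotated as a lincRNA at chr15:60120540-60187408 on the minus strand of GRCm38 (mm10). It has 4 transcripts, from 284 to 1524 bases long, and its exons cover 2068 bases in 8 blocks. Printed below is Gm2682-204, the shortest transcript and the one with the most exons (5), as GENCODE M21 gives it, 5′ to 3′. Capitals mark AATAAA, a polyadenylation signal, which begins 31 bases before the end. On the sense strand this motif lies in the last 50 bases of 26.6% of the 141767 annotated transcripts, and in 2 of the 4 of Gm2682.
Gm2682-204: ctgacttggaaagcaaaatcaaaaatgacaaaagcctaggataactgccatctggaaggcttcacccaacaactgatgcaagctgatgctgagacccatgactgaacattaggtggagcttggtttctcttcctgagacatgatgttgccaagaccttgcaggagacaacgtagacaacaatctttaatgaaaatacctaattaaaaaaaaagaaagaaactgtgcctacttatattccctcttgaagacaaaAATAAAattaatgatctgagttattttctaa

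Malat1 (chr19:5795690-5802672) and Neat1 (chr19:5824708-5845478) are neighbours on the minus strand of chromosome 19. Malat1 and the long isoform of Neat1 end where RNase P cuts, and their 3′ ends are held by a triple helix of U-rich and A-rich stretches, which is why these stretches are shown. Capitals mark, from left to right, the 2 U-rich stretches, in DNA letters, and the A-rich stretch. The first line is chr19:5795942-5796087 (146 bases of Malat1-201, which runs past the cut) and the second chr19:5824708-5824820 (the last 113 bases of Neat1-201), both from GENCODE M21.
Malat1: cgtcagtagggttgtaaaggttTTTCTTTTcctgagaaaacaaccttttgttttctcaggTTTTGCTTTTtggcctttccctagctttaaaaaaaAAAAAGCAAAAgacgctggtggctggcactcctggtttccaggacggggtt
Neat1: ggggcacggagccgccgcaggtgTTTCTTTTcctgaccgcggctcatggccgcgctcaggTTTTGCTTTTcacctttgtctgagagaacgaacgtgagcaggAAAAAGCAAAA

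The right-hand U-rich stretch followed within 60 bases by the A-rich stretch, each letter for letter as capitalised, was found on the sense strand of 4 of the 141767 annotated transcripts (0.00282%), and these belong to 3 genes, Malat1, Neat1 and Retreg3. Retreg3 is named only because the search found it. The pair of motifs is a feature of the sequence and was not measured in these libraries.

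For the snoRNA hosts, the start of the gene is shown where a run of C and T covers the first base. Host starts without such a run are not printed. Each line holds the 50 bases before and the 40 bases from the annotated start, from RefSeq promoters of GRCm38.p6, in which 6 of the 8 members were matched. They are Gas5 at chr1:161035116-161035205 (plus strand, the downstream one of 2 annotated starts), Snhg1 at chr19:8723437-8723526 (plus), Snhg8 at chr3:123508297-123508386 (minus) and Snhg12 at chr4:132308628-132308717 (plus). Capitals mark the unbroken run of C and T that covers the first base.
Gas5: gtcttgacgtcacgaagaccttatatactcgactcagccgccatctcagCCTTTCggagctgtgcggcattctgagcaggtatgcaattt
Snhg1: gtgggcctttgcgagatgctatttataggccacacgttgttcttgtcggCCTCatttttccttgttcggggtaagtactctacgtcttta
Snhg8: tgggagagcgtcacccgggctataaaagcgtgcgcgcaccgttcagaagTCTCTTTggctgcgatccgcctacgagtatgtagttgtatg
Snhg12: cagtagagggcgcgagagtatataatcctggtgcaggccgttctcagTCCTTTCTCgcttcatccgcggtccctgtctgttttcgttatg

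The run of C and T was counted in both directions from the annotated first base. In each window printed it takes in sequence before the start. It measured 9 bases in Snhg12, 7 in Snhg8, 6 in this start of Gas5 and 4 in Snhg1. A run at least as long was found at 3.03%, 5.28%, 7.25% and 14% of the 32851 promoters respectively. The upstream start of Gas5 and the start of Snhg3 had none, and that of Malat1 had 2 bases. The letters TATA lay 20 to 40 bases before the start on the gene's strand in the 4 windows printed and not at the upstream start of Gas5 or the starts of Snhg3 and Malat1. It was found at 5.49% of all promoters and 8.11% of those of ribosomal protein genes. For comparison, 21 of 74 promoters of ribosomal protein genes (28.4%) had a run of at least 5 bases, against 10.1% of all promoters. Such matches describe the letters in the window and are no evidence of a start used in these cells.

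Total counts ran from 4309500 to 7462076 per library, and 3 counts of a gene corresponded to 0.43 to 0.69 CPM (counts per 1000000 of the scaled total of the tested genes). Tcf7, the gene of the reporter, was at 121, 140.5 and 71.3 CPM in GFPNeg and 237, 183 and 140.8 CPM in GFPPos replicates 1 to 3, so the groups almost touched, and it was not called (log2 fold change 0.75 ± 0.26 SE, edgeR adjusted p = 0.367). Cd3e (622 to 795 CPM) and Cd4 (510 to 695 CPM) were high in all 6 libraries, and the CD8 genes held at most 0.0123% of the counts. GFPPos replicate 3 stood apart. Its 11 myeloid markers held 0.703% of the counts against 0.0139% to 0.0194% in the other 5 libraries, its 8 markers of antigen-presenting cells 0.659% against 0.0187% to 0.0443%, and its 12 T cell identity genes 0.663% against 0.842% to 0.937%. It had 17119 genes with a count, against 14538 to 15346 elsewhere. Between groups the T cell identity share did not separate (two-sided exact permutation p = 0.9, where 3 against 3 cannot go below 0.1). For each member or list, the range over the 6 edgeR fits that each left out 1 library is given where it passes 1.5 times the value, with the libraries at its ends.

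Gm2682 was higher in every GFPPos library than in any GFPNeg library. Its level was 34.3, 59.8 and 47.8 CPM in GFPNeg replicates 1 to 3 and 153, 169 and 103 CPM in GFPPos replicates 1 to 3, on 177 to 263 and 721 to 886 counts. The group means were 47.3 ± 12.8 and 142 ± 34.3 CPM (SD, n = 3 each), a ratio of 3.0. The lowest GFPPos library, replicate 3, was 1.73 times the highest GFPNeg library, replicate 2. In bulk RNA, more cells that carry a transcript and more of the transcript per cell cannot be told apart.

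The fitted log2 fold change of Gm2682, GFPPos minus GFPNeg here and throughout, was 1.59 ± 0.24 (SE). Its adjusted p by edgeR's quasi-likelihood test over 11074 genes was 0.0262. It was the single one of the 7 tested members called at 0.05, by edgeR as by DESeq2 and limma-voom. Of all tested genes edgeR called 0.108% in either direction and 0.0361% as higher. DESeq2 called more of the 11074 genes, 70 higher and 130 lower, and limma-voom 8 higher and 10 lower. All of these tools used the same counts. Each library left out also leaves fewer samples: without any one of 5 libraries the adjusted p lay between 0.0674 and 0.288, and without GFPPos replicate 3 it was 0.00815. Over the 6 fits with a library left out, the log2 fold change stayed between 1.39 and 1.78.

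**Figure D1:**
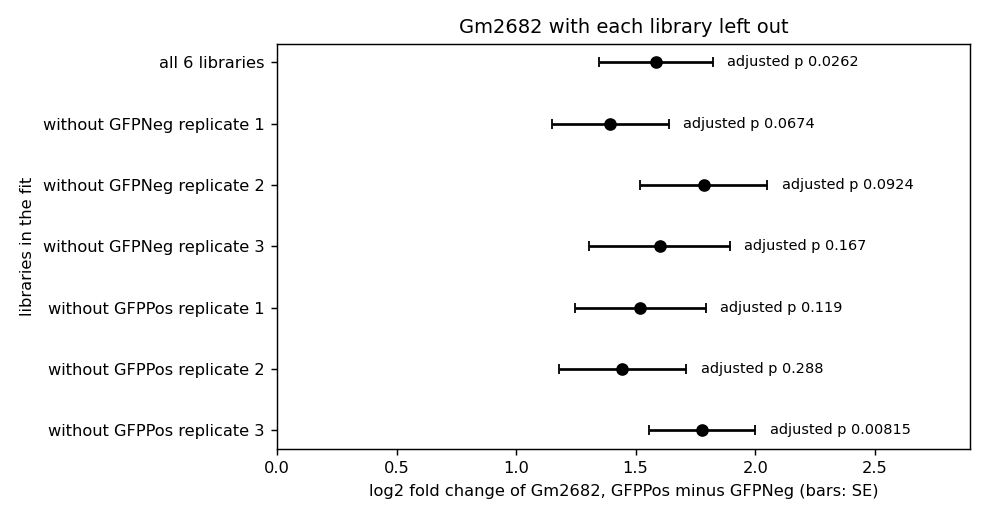
Log2 fold change of Gm2682 (x axis, GFPPos minus GFPNeg; points with SE bars) from edgeR with all 6 libraries and with each library left out (rows), with the adjusted p of each fit. With a library left out the estimate stays between 1.39 and 1.78, while the adjusted p is under 0.05 with all libraries and without GFPPos replicate 3.

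Set against other RNAs of the same library, Gm2682 kept apart where the reference was T cell genes and less so for Malat1. Per 100 counts of the 12 T cell identity genes there were 0.379, 0.711 and 0.566 counts of Gm2682 in GFPNeg and 1.70, 1.93 and 1.46 in GFPPos libraries, and the groups did not overlap. Per 100 counts of Gas5 there were 7.87, 14.9 and 11.5 against 34.3, 29.8 and 15.9, which also did not overlap, by a narrow margin in GFPPos replicate 3. Per 100 counts of Malat1 there were 1.30, 3.63 and 2.39 against 6.07, 7.33 and 3.07, and here GFPPos replicate 3 lay below GFPNeg replicate 2. These ratios were chosen after the data had been seen. GFPPos replicate 3, with the myeloid markers, was the lowest GFPPos library in all 3 ratios; the part of the other cells in that was not tested.

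Gm2682 lies in a stretch with few expressed genes. Of 31 other annotated genes within 1000000 bases of it, 23 had no count in any library and 5 were tested. The nearest tested gene on one side was Trib1, a pseudokinase gene 463 kb away, at 28.6 ± 3.43 CPM in GFPNeg and 45.5 ± 14.4 CPM in GFPPos libraries (SD, n = 3 each; log2 fold change 0.67 ± 0.27 SE, edgeR adjusted p = 0.405). Beyond it, Nsmce2, a SUMO ligase gene, had a log2 fold change of 0.07. On the other side stood Lratd2 at 632 kb (log2 fold change 0.77 on 0.97 to 8.89 CPM) and Myc at 1798 kb. Myc, the growth-promoting transcription factor, was at 86.5 ± 8.40 CPM in GFPNeg and 120 ± 9.35 CPM in GFPPos libraries without overlap (log2 fold change 0.48 ± 0.16 SE, edgeR adjusted p = 0.294). None of these 4 genes was called.

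The genes whose levels followed Gm2682 most closely over the 6 libraries, among 9371 tested genes with a mean of at least 5 CPM, were Atp2b1, a calcium pump of the plasma membrane (Pearson r = 0.990), Ldlrad4, an inhibitor of TGF-beta signalling (0.989), and Cxcr3, a chemokine receptor of T cells (0.987). These 6 libraries form 2 groups, and the values carry no test. Cxcr3 went from 248 to 358 CPM (log2 fold change 0.53, edgeR adjusted p = 0.158) and Atp2b1 from 194 to 262 CPM (0.44, edgeR adjusted p = 0.273).

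Of the nuclear RNAs, Malat1 was abundant and varied within both groups. It stood at 2636, 1649 and 2002 CPM in GFPNeg and 2527, 2304 and 3367 CPM in GFPPos replicates 1 to 3. GFPNeg replicate 1 lay above 2 of the 3 GFPPos libraries, so the groups overlapped. The means were 2095 ± 500.1 and 2733 ± 561 CPM (SD, n = 3 each) and the log2 fold change 0.38 ± 0.20 (SE; edgeR adjusted p = 0.563). It was 0.21 without GFPPos replicate 3, 0.23 without GFPNeg replicate 2 and 0.58 without GFPNeg replicate 1. Malat1 took 0.168% to 0.315% of all counts and 11.5% to 17.8% of the counts of all long noncoding genes.

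Neat1 stood at 59.1, 53.7 and 42.1 CPM in GFPNeg and 56.8, 67.4 and 63.0 CPM in GFPPos replicates 1 to 3. The groups overlapped through GFPPos replicate 1, which was below GFPNeg replicate 1. The means were 51.6 ± 8.69 and 62.4 ± 5.30 CPM (SD, n = 3 each), and the log2 fold change was 0.27 ± 0.21 (SE; edgeR adjusted p = 0.718). It was 0.15 without GFPNeg replicate 3, the lowest library, and at most 0.38 (without GFPNeg replicate 1). Malat1 exceeded Neat1 by a factor of 91.4 to 159 in TPM (transcripts per 1000000, a level per length), with overlapping groups. The TPM of Neat1 is per the whole 20771 bases of the gene, and its short isoform, which shares the 5′ part, was not counted apart.

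Genes of the structures that these RNAs belong to were counted from lists of names. For comparison with these and the later lists, 10.3% of all tested genes had an unadjusted edgeR p under 0.05. The groups did not overlap, in either direction, for 16.0% of all tested genes. Of 25 paraspeckle protein genes tested, 7 were positive and 18 negative in log2 fold change (median -0.06; -0.17 without GFPPos replicate 1 to -0.04 without GFPPos replicate 2), and edgeR, DESeq2 and limma-voom each called 0; 3 had an unadjusted edgeR p under 0.05. Those 3 were Nono, a core paraspeckle protein (268 ± 4.67 to 208 ± 33.7 CPM, log2 fold change -0.37), Rbm12 (1.14, on 4.17 to 20.8 CPM) and Nudt21, a cleavage factor subunit (110.4 ± 17.3 to 84.7 ± 6.75 CPM, -0.38). The groups of Nono and of Nudt21 did not overlap, and the GFPPos libraries were the lower ones.

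Of 23 genes of nuclear speckles and SR splicing factors, 15 were positive and 8 negative (median 0.08; 0.04 without GFPPos replicate 1 to 0.15 without GFPPos replicate 3), with 0 called by the 3 tools and 2 with an unadjusted edgeR p under 0.05. Tra2a, a splicing activator, went from 63.6 ± 1.02 to 87.8 ± 13.7 CPM and Srsf9 from 22.4 ± 3.46 to 11.7 ± 5.23 CPM, both without overlap (SD, n = 3 each). Srsf6 had a log2 fold change of -0.37 and Srsf11 of 0.26. Of 11 genes of RNase Z and of RNase P, which cuts Malat1 and long Neat1, 5 were positive and 6 negative (median -0.01). The 3 tools called 0, and 1 had an unadjusted edgeR p under 0.05. The sign of that median was not stable: it was 0.01 without GFPPos replicate 1 to 0.21 without GFPNeg replicate 3, and 0.21 by limma-voom. The gene with an unadjusted p under 0.05 was Rpp40 (log2 fold change 1.82 ± 0.68 SE, edgeR adjusted p = 0.379). It was at 0.91 to 3.51 CPM in GFPNeg and 5.02 to 13.9 CPM in GFPPos libraries. Rpp38 had 0.76, Pop7 -0.52 and Rpp30 -0.40.

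Among the snoRNA hosts, Gas5 (chr1:161034422-161038539) was the highest by TPM. It stood at 436, 401 and 416 CPM in GFPNeg and 448, 568 and 651 CPM in GFPPos replicates 1 to 3. The GFPNeg libraries lay close together and the GFPPos libraries spread above them, the lowest by 1.03 times the highest GFPNeg library. The means were 418 ± 17.6 and 556 ± 102 CPM (SD, n = 3 each), and the fitted difference was 0.41 ± 0.16 on the log2 scale (SE; edgeR adjusted p = 0.381). Gas5 was named for its accumulation in growth-arrested cells. Without GFPPos replicate 3 its log2 fold change was 0.29 ± 0.15.

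Snhg8 (chr3:123507552-123508404) had the second largest difference of the 7 tested members. It stood at 44.2, 30.7 and 25.9 CPM in GFPNeg and 44.9, 65.8 and 71.7 CPM in GFPPos replicates 1 to 3. The groups did not overlap, but GFPPos replicate 1 was only 1.01 times GFPNeg replicate 1. The means were 33.6 ± 9.50 and 60.8 ± 14.1 CPM (SD, n = 3 each), and the log2 fold change was 0.85 ± 0.27 (SE; edgeR adjusted p = 0.259).

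Snhg12 (chr4:132308623-132311024) stood at 14.7, 11.4 and 19.1 CPM in GFPNeg and 11.3, 29.9 and 30.6 CPM in GFPPos replicates 1 to 3. GFPPos replicate 1 was the lowest of all 6 libraries and the other GFPPos libraries were the highest, so the group mean lay between them. The log2 fold change was 0.66 ± 0.40 (SE; edgeR adjusted p = 0.639), 0.998 without GFPPos replicate 1 and 0.45 without GFPPos replicate 3. Snhg1 (chr19:8723475-8726443) stood at 33.3, 26.8 and 29.6 CPM in GFPNeg and 28.1, 35.9 and 48.9 CPM in GFPPos replicates 1 to 3, with overlapping groups and a fitted log2 difference of 0.33 ± 0.27 (SE; edgeR adjusted p = 0.737). Without GFPPos replicate 3, its highest library, the log2 fold change of Snhg1 was 0.10 ± 0.28, and without GFPPos replicate 1, 0.50.

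Snhg3 (chr4:132348014-132353686) was close to undetected. It had 3 counts in GFPNeg replicate 1, 3 counts in GFPPos replicate 3 and 0 in the other 4 libraries, where 0 counts allow up to 0.52 to 0.69 CPM (3 counts, counting error only). It was the one member that did not pass the filter on low counts and was not tested. Of its 986 exon bases 71.5% overlap Gm17300 on the opposite strand, which had 0 to 7 counts per library, and 13.7% overlap Rcc1 on the same strand, which had 58 to 215. Reads of overlapping genes cannot be told apart here, since the library preparation does not record the strand and how shared reads were counted is not given in the sources used here.

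**Figure D2:**
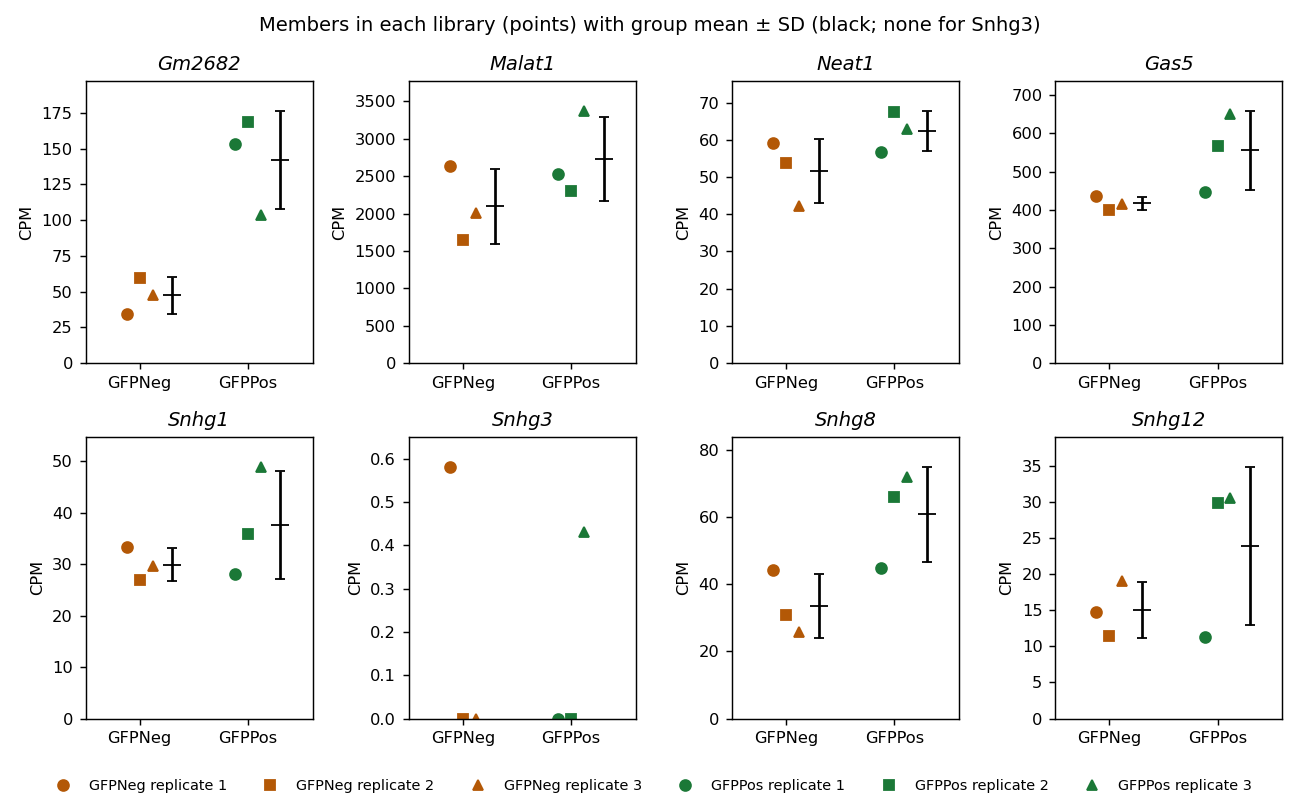
Level of each of the 8 genes in each library (y axes, CPM from 0; points by group and replicate number) with the group mean ± SD (n = 3) in black, left out for Snhg3, which had counts in 2 libraries. The groups do not overlap for Gm2682, Gas5 and Snhg8; Gas5 and Snhg8 are separated by a narrow margin, at GFPPos replicate 1.

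The 7 tested members are thus those that passed a filter on low counts, and all 7 had a positive log2 fold change (median 0.41), where 51.6% of all tested genes did (median 0.02). The groups did not overlap for 3 of the 7, Gm2682, Gas5 and Snhg8, each with GFPPos higher, against 7.25% of all tested genes that way and 16.0% in either direction. The same 3 did not overlap when GFPPos replicate 3 was left out, where 13.6% of all genes were separated with GFPPos higher. Those 3 were also the members with an unadjusted edgeR p under 0.05, which 10.3% of all tested genes had. GFPPos replicate 3, the library with the myeloid markers, was the highest of all 6 for Malat1, Gas5, Snhg1, Snhg8 and Snhg12, and the part of its other cells in these levels was not tested. Since the members were chosen with these results known, nothing is read from these counts.

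**Figure D3:**
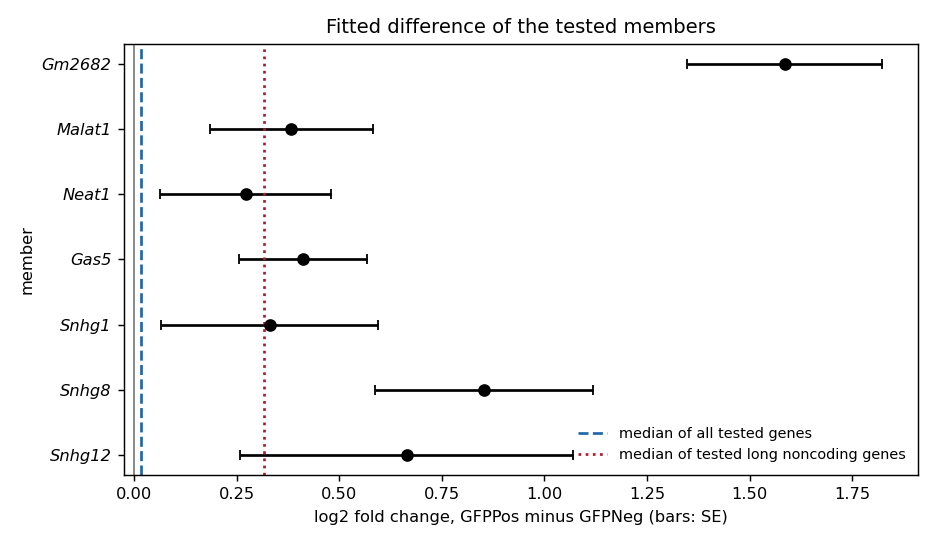
Log2 fold change (x axis, GFPPos minus GFPNeg) of the 7 tested members with SE bars from edgeR. The dashed line is the median of all 11074 tested genes (0.02) and the dotted line that of the 736 tested long noncoding genes (0.32); Gm2682 (1.59), Snhg8 (0.85) and Snhg12 (0.66) lie farthest to the right.

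Over the 6 libraries the 4 tested snoRNA hosts had a Pearson r of 0.65 (Snhg8 and Snhg12) to 0.92 (Gas5 and Snhg1) with each other. Pairs of a host and a nuclear RNA reached like values, from 0.39 for Neat1 and Snhg12 to 0.91 for Neat1 and Snhg8, with 0.82 for Malat1 and Snhg1. Gm2682 had r between 0.23 and 0.62 with the other 6 tested members. Each r is over the same 6 libraries, which differ in depth and group, and is given as a description. Among the 9371 genes compared, those nearest to Snhg12 were all ribosomal protein genes, Rps27a (0.999), Rpl9 (0.994) and Rpl37 (0.993), and those nearest to Gas5 were Rpl22l1, a paralog of a ribosomal protein (0.989), Tra2a (0.983) and the ribosomal protein gene Rps28 (0.982). Those nearest to Snhg8 were Marveld2, Ndufa6 and Chpf (0.971 to 0.979), and those nearest to Snhg1 were Sdhc, S100a11 and B2m (0.986 to 0.993). For Malat1 they were Abcg1, Galnt9 and Mettl22 (0.983 to 0.992), and for Neat1 Ndrg2, Prkab1 and Champ1 (0.983 to 0.991).

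The ribosomal protein genes also set GFPPos replicate 1 apart from the other GFPPos libraries. They held 5.46%, 5.26% and 6.59% of the counts in GFPNeg and 5.47%, 8.10% and 7.87% in GFPPos replicates 1 to 3. GFPPos replicate 1 thus lay among the GFPNeg libraries and the other GFPPos libraries above them. Of 77 tested, 73 were positive and 4 negative. The median was 0.35, with 0.23 without GFPPos replicate 3 and 0.53 without GFPPos replicate 1. EdgeR and limma-voom called 0. DESeq2 called 2 higher, Rps28 and Rps27, where it called 70 higher and 130 lower of all 11074 tested genes. An unadjusted edgeR p under 0.05 was found for 15, where 10.3% of all tested genes had one. Non-ribosomal messenger RNAs with the same kind of pyrimidine start had a median of 0.12, with 13 of 17 positive, 0 called by the 3 tools and 1 with an unadjusted edgeR p under 0.05. This median was 0.0046 without GFPNeg replicate 1 and 0.23 without GFPNeg replicate 3. The gene with that p, Nap1l1, a histone chaperone gene, was lower in GFPPos libraries (150.1 ± 22.3 to 109 ± 6.51 CPM, SD, n = 3 each). Pabpc1, the poly(A)-binding protein gene, was higher in each GFPPos library (450.3 ± 44.4 to 511 ± 5.97 CPM). Eef1g and Eef1b2, genes of translation elongation factor subunits, had log2 fold changes of 0.28 and 0.26.

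Most other snoRNA hosts had the members' sign, as did 70.1% of the 736 tested long noncoding genes, whose median was 0.32. Of 16 further host genes listed, 15 were in the table and 11 were tested; 9 were positive and 2 negative (median 0.25; 0.19 without GFPPos replicate 3 to 0.41 without GFPNeg replicate 1), with 0 called by the 3 tools and 0 with an unadjusted edgeR p under 0.05. Snhg16 went from 17.2 ± 0.82 to 25.9 ± 3.88 CPM without overlap (SD, n = 3 each; log2 fold change 0.58 ± 0.29 SE). Zfas1 stood at 45.0, 54.8 and 41.7 CPM in GFPNeg and 36.4, 74.3 and 93.7 CPM in GFPPos replicates 1 to 3. As for Snhg12, GFPPos replicate 1 was the lowest of the 6 libraries of Zfas1 and the other GFPPos libraries were the highest. Snhg9 had a log2 fold change of 0.91 ± 0.71 and Epb41l4aos of 0.53 ± 0.44 (SE). Snhg5, at 91.3 to 109 CPM, had -0.01 ± 0.15.

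The snoRNAs themselves had no counts. The annotation places 26 of them inside the members on the same strand, 10 in Gas5, 8 in Snhg1, 5 in Snhg12, 2 in Snhg3 and 1 in Snhg8, and all 26 had 0 counts in every library. Of all 1507 snoRNA genes counted, 166 had a count. Since 25 of the 26 share bases with exons of their host and how shared reads were counted is not given, these zeros do not show that the snoRNAs were absent, and the host genes' levels say nothing here about them. In this annotation retained-intron transcripts fill the introns of Snhg1, Snhg8 and Snhg12, whose exons form 1 block each, so unspliced and spliced RNA were counted together. The same holds for much of Gas5, whose exons cover 3760 of the 4118 bases of the gene in 3 blocks.

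The proteins that bind snoRNAs and the factors that clear host transcripts were counted likewise. Of 16 tested genes of snoRNA-protein particles and their assembly, 12 were positive and 4 negative (median 0.21; 0.08 without GFPNeg replicate 1 to 0.27 without GFPNeg replicate 3), 0 were called by the 3 tools and 1 had an unadjusted edgeR p under 0.05. That was Nop10, a subunit of the pseudouridylation particle, at 136, 124 and 121 CPM in GFPNeg and 151, 184 and 173 CPM in GFPPos replicates 1 to 3 (log2 fold change 0.42 ± 0.14 SE, edgeR adjusted p = 0.326). Its groups did not overlap. Nolc1 had 0.52, the assembly factor gene Znhit3 -0.62 and Fbl, the methyltransferase fibrillarin, 0.39.

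Of 17 factors of nonsense-mediated decay, 8 were positive and 9 negative (median -0.03; -0.12 without GFPPos replicate 1 to 0.03 without GFPNeg replicate 3), with 0 called by the 3 tools and 3 with an unadjusted edgeR p under 0.05. Upf3a was lower in GFPPos libraries (53.1 ± 7.88 to 36.7 ± 7.05 CPM), while Smg9 (27.8 ± 8.60 to 42.8 ± 7.06 CPM) and the kinase gene Smg1 (122 ± 20.4 to 159 ± 21.9 CPM) were higher, each without overlap (SD, n = 3 each). Smg8 had a log2 fold change of -0.78. Of 15 genes of mTORC1, the growth kinase complex, and of regulators of pyrimidine-start messenger RNAs, 10 were positive and 5 negative (median 0.08; -0.01 without GFPNeg replicate 3 to 0.14 without GFPPos replicate 3), with 0 called by the 3 tools and 0 with an unadjusted edgeR p under 0.05. Eif4ebp2 had -0.29, Tbc1d7 -0.75, Rptor 0.31 and Tsc1 0.51.

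Per length, the members kept nearly the same order in every library. Mean TPM over the 6 libraries was 978 for Malat1, 366 for Gas5, 156 for Snhg8, 130.2 for Gm2682, 32.1 for Snhg1, 22.7 for Snhg12, 7.81 for Neat1 and 0.47 for Snhg3. Malat1 ranked 4, Gas5 8, Snhg8 16 and Gm2682 19 among 13133 long noncoding genes, and Neat1 360. The length used is that of all annotated exons, which for Gas5, Snhg1, Snhg8 and Snhg12 takes in intron sequence. The order and the ranks thus depend on the annotation as well. Values of neighbours in that order overlapped for Snhg8 and Gm2682 and for Snhg1 and Snhg12. Gm2682 was above Snhg8 in GFPPos replicates 1 and 2 and below it in the other 4 libraries. Snhg12 was above Snhg1 in GFPPos replicate 2 alone. Gm2682 stood at 47.9, 86.6 and 66.1 TPM in GFPNeg and 222, 230 and 128 TPM in GFPPos replicates 1 to 3.

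**Figure D4:**
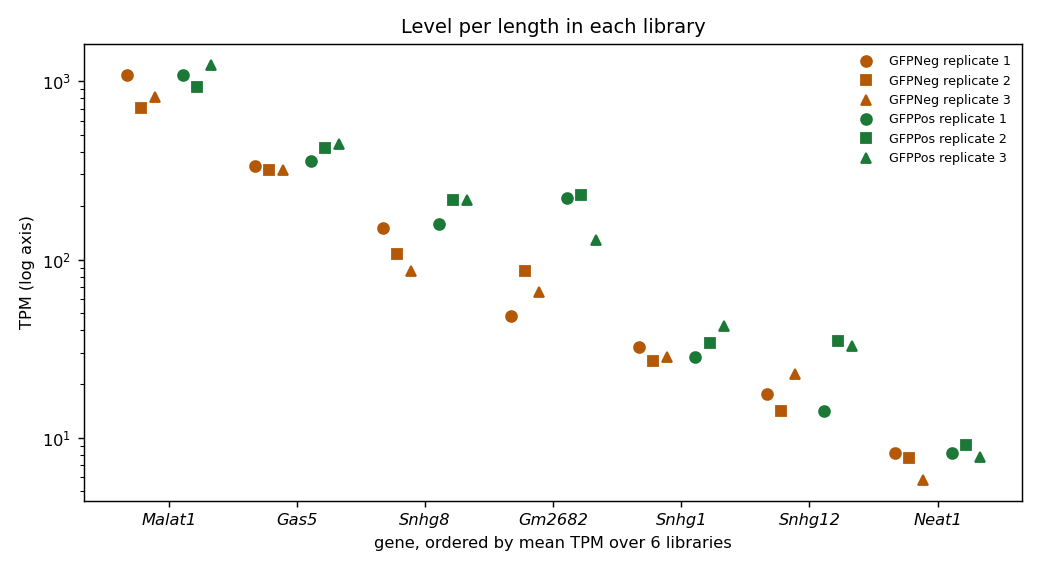
Level per length (y axis, TPM, log axis) of the 7 tested members in each library, ordered by mean TPM; each point is 1 library, GFPNeg left and GFPPos right. The order from Malat1 to Neat1 holds in the means, and Gm2682 and Snhg8, as well as Snhg1 and Snhg12, overlap.

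Most tested long noncoding genes had the members' sign. Of 736 tested, 516 (70.1%) were positive in log2 fold change and the median was 0.32, against 51.6% and 0.02 for all tested genes. Without the members the share was 69.8% of 729. Leaving out GFPPos replicate 3, it was 65.9% of 834 tested, against 51.2% of all genes. The gap depended on the filter: with no filter on low counts 60.7% of 3792 long noncoding genes were positive against 55.6% of all genes, and by unfiltered TPM 58.9% against 51.5%. Long noncoding genes together held 1.68%, 1.47% and 1.52% of the counts in GFPNeg and 1.75%, 1.67% and 1.77% in GFPPos replicates 1 to 3, so the groups overlapped in that total. Gm2682 was the 1 long noncoding gene that edgeR called, where it called 12 of all 11074 tested genes. An unadjusted edgeR p under 0.05 was found for 53 of the 736, a smaller share than the 10.3% of all tested genes. DESeq2 called 9 of the 736, 7 higher and 2 lower, Gm2682 among them. In either direction that too is a smaller share than over all genes, where DESeq2 called 70 higher and 130 lower of 11074. By direction, the 7 higher are a larger share than the 70 of all genes, and the 2 lower a smaller share than the 130. Limma-voom called Gm2682 alone. The groups did not overlap, with GFPPos higher, for 90 of the 736 long noncoding genes, against 7.25% of all tested genes. In either direction they did not overlap for 16.0% of the 736 and 16.0% of all tested genes.

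**Figure D5:**
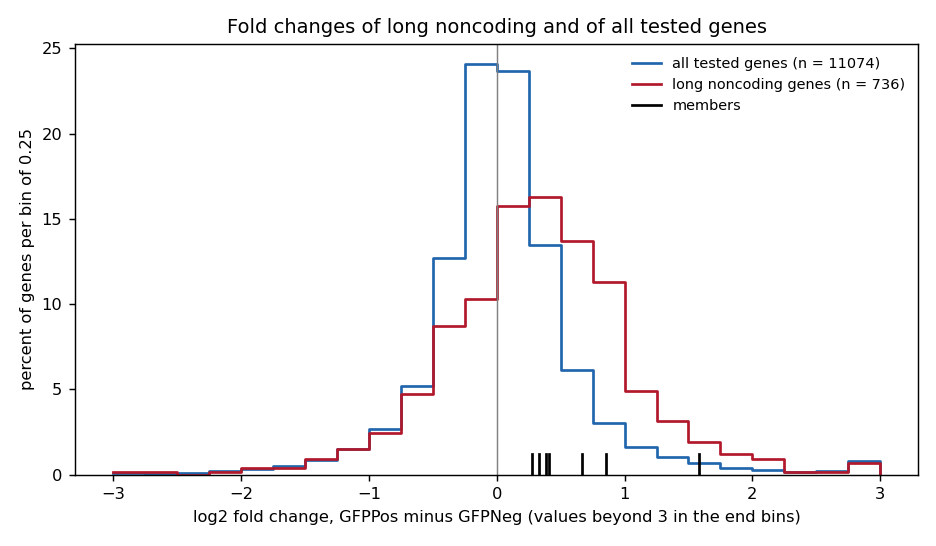
Share of genes (y axis, percent per bin of 0.25) by log2 fold change (x axis, GFPPos minus GFPNeg, values beyond 3 in the end bins) for all 11074 tested genes and for the 736 tested long noncoding genes, with the 7 tested members as black marks. The long noncoding genes lie to the right of all genes, with medians of 0.32 and 0.02.

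Of the other named long noncoding RNAs, 17 of the 29 listed were tested, 13 positive and 4 negative (median 0.22; 0.13 without GFPNeg replicate 3 to 0.35 without GFPNeg replicate 1), with 0 called by the 3 tools and 2 with an unadjusted edgeR p under 0.05. Lncpint stood at 104.5, 89.8 and 69.3 CPM in GFPNeg and 128, 137 and 101 CPM in GFPPos replicates 1 to 3, overlapping through GFPPos replicate 3. 1810026B05Rik had a log2 fold change of 0.56 ± 0.26, Mir142hg, the host gene of a microRNA of blood cells, 0.49 ± 0.27, and Pvt1, the neighbour of Myc, 0.44 ± 0.29 (SE). Tug1, by contrast, had 0.00 ± 0.26.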

How the data were processed

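Bulk RNA-seq was analysed from 3 GFPPos and 3 GFPNeg libraries, grouped by their labels. The authors deposited raw counts per gene and TPM values; the submitters' processing notes name mm10 and the tools STAR 2.7.10b, fastp 0.23.3, deepTools 3.5.1 and SAMtools 1.17. Which counter and which gene models were used is not given in the sources used here. Per the labels' protocols, cDNA was primed with oligo-dT and random hexamers, amplified by PCR and tagged by transposase, without strand or molecular identifiers. The deposited TPM of each member implied a length equal to its exon length in GENCODE M21, with which 54587 of 55335 identifiers matched by version.

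Counts were tested with edgeR 4.0.16 (R 4.3.3; quasi-likelihood, TMM, robust, minimum count 10 by group, Benjamini-Hochberg over 11074 genes, threshold 0.05) and CPM were computed from them. DESeq2 1.42.0, limma 3.58.1, other scalings, filters, TPM scales with pseudocounts of 1 and 0.1, a replicate block and leaving out each library were alternatives. The fit was also run on counts simulated from its own means and dispersions. No result here rests on that run. Marker shares were compared by an exact permutation test; motifs and correlations carry no test.

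The members and gene lists were chosen with earlier results of these data known. Named are the 8 members, up to 4 genes of each list with the smallest p, the 3 genes most like each member (Pearson r of log2 CPM with a prior count of 2), the nearest 2 tested genes on each side of Gm2682, long noncoding genes called by edgeR, and Tcf7; a gene the rule takes is not reported here. Cd3e and Cd4 (from the cell type markers), Snhg5, Tug1, Rps27, Retreg3 and the genes overlapping Snhg3 were named outside this rule, after their values were seen.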

Additional observations from a re-analysis of the deposited data

How the results depend on the processing

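With all 6 libraries edgeR called 4 genes higher and 8 lower in GFPPos libraries. The log2 fold change of all 7 tested members stayed positive in all 22 alternatives, and their median lay between 0.29 and 0.58. Gm2682 lay between 1.39 and 1.79 and was called in 9 of the 22; the call was lost in the 3 fits to TPM (adjusted p 0.200 to 0.306) and in 10 fits that left out 1 library. Snhg8 was called once, with no filter on low counts (edgeR adjusted p = 0.0423). Library size alone gave 14 lower, no filter 167 higher and 206 lower, DESeq2 70 higher and 130 lower and limma-voom 8 higher; limma on log2(TPM + 1) gave 1 higher and 0 lower with and without a filter, and on log2(TPM + 0.1) 0 and 0. Leaving out 1 library gave 0 to 13 higher and 0 to 29 lower, and with the genes tested in all 6 libraries, an alternative chosen after seeing the data, 0 to 15 and 0 to 35; both upper ends are without GFPPos replicate 3. With those genes, 2 were higher without GFPNeg replicate 1 and 2 without GFPPos replicate 2. The cause was not tested. In the fit to log2(TPM + 1) the median of all genes in the fit was -0.03, against 0.02 in the main fit. Every list median was lower there except that of the RNase P list, which had 0.11. Among them were the mTORC1 list (-0.02), the speckle list (0.02), the non-ribosomal messenger RNAs (0.05) and the other named long noncoding RNAs (0.09). With the replicate number as a block, edgeR called 21 higher and 60 lower, Gm2682 among the former with 1.59 ± 0.20 (SE; adjusted p = 0.00685), and the RNase P list median was 0.15. Deviations of same-numbered libraries correlated at 0.104, 0.097 and 0.104, and those of differently numbered libraries at -0.124 to 0.0195. Each library thus correlated best with its own number, though weakly. The labels do not say whether same-numbered libraries are paired, and the main fit does not pair them. Depth limits Snhg3, with at most 3 counts in a library.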
